A study of Homo sapiens with 6 samples.

Results

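The splicing regulators described here are 42 genes, out of 25528 gene symbols listed, that were chosen by name and not by their measured values. They comprise 12 SR protein genes (SRSF1 to SRSF12), TRA2A and TRA2B, 6 SR protein kinases, 10 hnRNP genes, 3 genes of the PTB family, 6 genes of SR-related nuclear speckle proteins and 3 genes of 3′ splice site recognition. Their transcripts were measured by RNA-seq in DU145/tet-XISTshRNA cells. DU145 is an established line of castration-resistant prostate cancer, and all 6 samples carried a vector that expresses a short hairpin RNA against the long noncoding RNA XIST once doxycycline (DOX) is added. Vehicle samples (n = 3) received 0.1% DMSO and DOX samples (n = 3) received 500 ng/ml DOX for 7 days. Cells without the hairpin or with a control hairpin under DOX were not analysed here, so effects of DOX itself and of the hairpin cannot be told apart. Cells were grown as triplicate cultures, and nothing states that these came from separate transductions or clones, so p-values measure only the spread between these cultures.

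Introns are removed from a pre-mRNA by the spliceosome, and which exons are kept depends on proteins that bind near the splice sites. SR proteins and the TRA2 proteins bind exonic enhancers through RNA recognition motifs and promote exon inclusion, and their arginine-serine domains are phosphorylated by the SRPK kinases in the cytoplasm and the CLK kinases in the nucleus. hnRNPs and PTB proteins often act against them by binding silencers or pyrimidine tracts. Many of these factors are stored in nuclear speckles around the scaffold proteins SON and SRRM2. U2AF and SF3B1 recognize the 3′ splice site and the branch point.

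Values are given as scaled TPM, that is, the deposited TPM of a sample divided by a size factor (the median over genes of the ratio to the geometric mean). The scaling was used because 5 small RNAs (RN7SK, RPPH1 and the 7SL RNAs RN7SL1 to RN7SL3) held 67.5% to 76.0% of the TPM of the vehicle samples and 76.0% to 82.6% of that of the DOX samples. Over all genes tested, the median of the log2 fold changes was -0.35 on the deposited TPM and 0.02 on scaled TPM, and directions are given relative to that shift. An estimated 5453638 (vehicle replicate 3) to 64572419 (DOX replicate 1) reads fell on genes, and a tested splicing regulator had 78 to 50958 of them in a sample. Of the epithelial markers, KRT8 was measured at 53.9 to 78.4 scaled TPM in vehicle and 80.6 to 116 in DOX, and KRT18 at 68.4 to 104 and 95.6 to 122. EPCAM was at 15.2 to 17.5 scaled TPM in vehicle and 12.3 to 13.7 in DOX, and CDH1 at 8.81 to 9.91 and 5.08 to 9.83, so that 1 of the 4 lay above vehicle without overlap and 1 below. None was called by limma, and the part of these markers in the results was not tested. PTPRC and PECAM1, markers of leukocytes and endothelium, were at most 0.04, and COL1A1, a fibroblast collagen, was at 0.27 to 0.55. XIST, the target of the hairpin, was listed at 0 in all 6 samples, as was the housekeeping gene EIF4A1, so silencing could not be checked from these values.

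The members at the ends of the measured range are shown by the 250 bases before their transcription start (RefSeq, GRCh38.p14, written 5′ to 3′ on the strand of the gene), since the transcripts of PNISR and PTBP3 were GC-poor and those of PTBP1 and U2AF2 GC-rich. Capitals mark 3 motifs, the GC box with the letters GGGCGG, the TATA box with the letters TATAAA, and the CCAAT box, which is named for its letters. Each was searched on both strands, as written and as its reverse complement, with overlapping matches counted. PNISR and PTBP3 had the lowest differences between DOX and vehicle, and PTBP1 (the first of 2 listed windows) and U2AF2 had the highest.
PNISR, chr6:99425309-99425558, minus strand: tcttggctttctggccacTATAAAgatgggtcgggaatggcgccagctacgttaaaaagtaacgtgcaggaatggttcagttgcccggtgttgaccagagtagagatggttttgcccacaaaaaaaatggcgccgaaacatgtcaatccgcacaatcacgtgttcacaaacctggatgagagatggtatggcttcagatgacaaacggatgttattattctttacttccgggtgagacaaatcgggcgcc
PTBP3, chr9:112333027-112333276, minus strand: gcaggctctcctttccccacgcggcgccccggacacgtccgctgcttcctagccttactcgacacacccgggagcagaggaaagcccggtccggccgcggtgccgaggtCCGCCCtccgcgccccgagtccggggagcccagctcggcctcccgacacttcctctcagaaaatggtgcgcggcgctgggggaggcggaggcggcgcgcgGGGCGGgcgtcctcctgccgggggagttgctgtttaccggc
PTBP1, chr19:797202-797451, plus strand: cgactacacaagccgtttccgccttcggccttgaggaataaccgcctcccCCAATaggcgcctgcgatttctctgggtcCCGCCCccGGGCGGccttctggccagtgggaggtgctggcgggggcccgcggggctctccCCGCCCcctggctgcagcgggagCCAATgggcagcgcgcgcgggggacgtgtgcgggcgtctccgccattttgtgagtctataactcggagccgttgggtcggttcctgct
U2AF2, chr19:55654785-55655034, plus strand: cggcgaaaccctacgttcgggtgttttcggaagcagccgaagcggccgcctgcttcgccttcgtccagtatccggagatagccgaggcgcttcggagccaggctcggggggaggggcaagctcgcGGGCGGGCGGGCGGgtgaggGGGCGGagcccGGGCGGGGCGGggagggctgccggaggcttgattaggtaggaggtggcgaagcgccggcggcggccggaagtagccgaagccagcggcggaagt

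The U2AF2 window held 6 GC boxes, that of PTBP1 held 3 GC boxes and 2 CCAAT boxes, and that of PTBP3 held 2 GC boxes. That of PNISR held only the letters of a TATA box, near the end of the window farthest from the transcription start. The letters were counted anywhere in a window, whatever their distance from the start. Of the 38 members matched in the promoter table, 21 held a GC box, 14 a CCAAT box and 4 a TATA box, which is 55.3%, 36.8% and 10.5%, beside 42.6%, 32.01% and 10.7% of all 35116 windows. The GC content of the window was 47.6% for PNISR, 73.6% for PTBP3, 69.2% for PTBP1 and 72.4% for U2AF2. In GENCODE release 44 on GRCh38 the genes span chr6:99397629-99425331 (PNISR), chr9:112217716-112333664 (PTBP3), chr19:797075-812327 (PTBP1) and chr19:55654146-55674716 (U2AF2), so that each window lies inside or beside the annotated gene. PTBP3 paired a GC-rich window with transcripts of 37.7% GC.

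Of the 42 genes, 41 had a mean of at least 1 scaled TPM and were tested together with all other genes past that minimum. The hnRNPs were the most abundant, led by HNRNPC at 190.7 ± 14.4 scaled TPM (SD over all 6 samples), a binder of uridine tracts. HNRNPA1, a classical antagonist of SR proteins, followed at 175.0 ± 27.7, HNRNPA2B1 at 140.6 ± 22.4 and HNRNPH1 at 120.6 ± 18.03. These neighbours overlapped in their range over samples, for example 168 to 205 for HNRNPC and 131 to 206 for HNRNPA1. SRSF5 (104.4 ± 10.0) and SRSF9 (85.5 ± 8.03) were the most abundant SR protein transcripts. SRSF12 was the lowest of the tested genes at 2.25 ± 0.51 scaled TPM, and the kinases CLK1, CLK2, CLK3 and CLK4 lay between 6.41 and 10.8, below SRPK1 (33.2 ± 2.42) and SRPK2 (20.6 ± 1.79). The order of the families is seen in the plot of levels by sample.

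**Figure D1:**
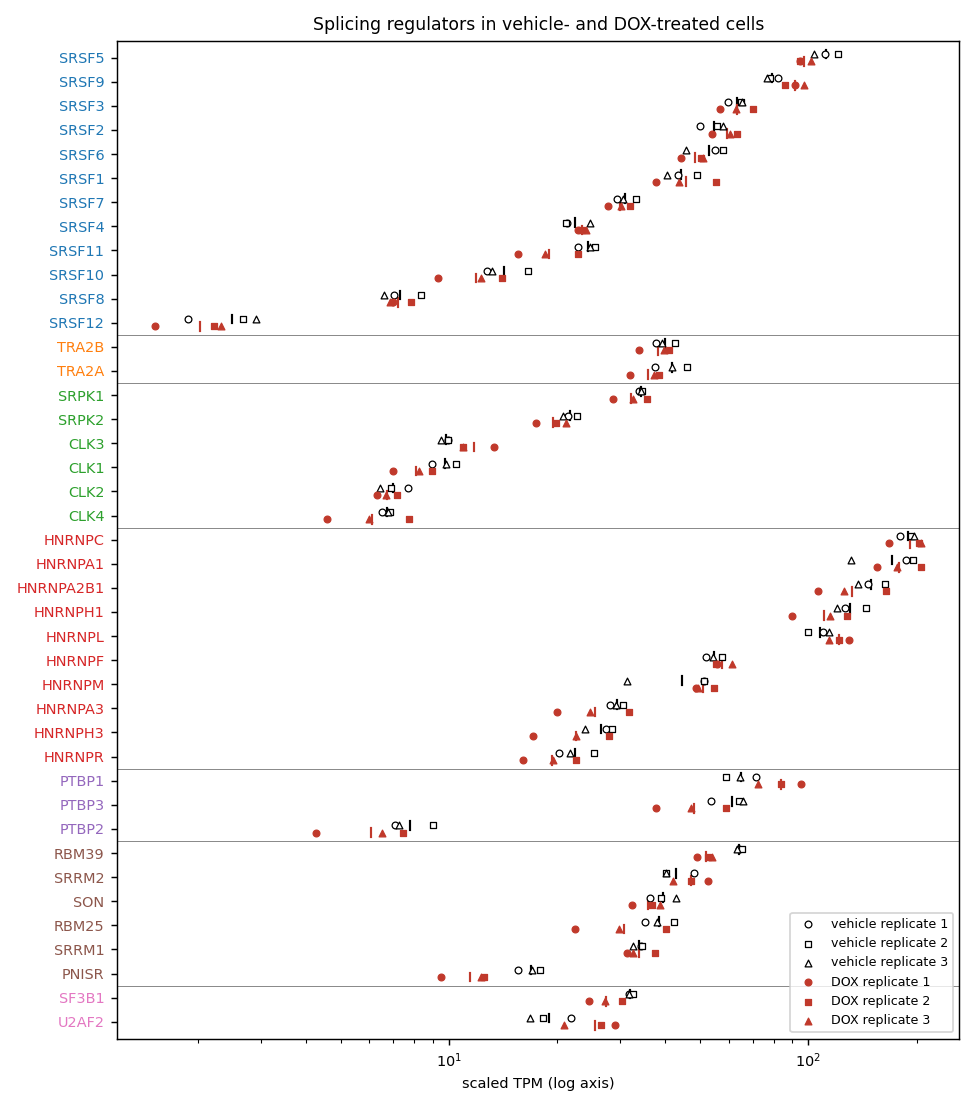
Scaled TPM (log axis) of the 41 tested splicing regulators, ordered by role and by mean level. Open black symbols are the 3 vehicle samples, filled red symbols the 3 DOX samples, symbol shape gives the replicate and short vertical lines the group means. Levels run from 2.25 (SRSF12) to 190.7 (HNRNPC) scaled TPM, and DOX replicate 1 (filled circle) is the lowest sample for 29 of the 41 genes.

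The comparison of DOX with vehicle asked whether transcripts of splicing regulators differ once the hairpin is induced. None of the 41 genes passed an adjusted p-value of 0.05 with a fold change over 1.5 in either direction (limma on log2(scaled TPM + 1)), where the background over all 11595 genes was also 0% lower and 0% higher. The adjusted p-values of limma ran from 0.280 to 0.994 over the splicing regulators. At an unadjusted p under 0.05, 3 of 41 were lower (PNISR, SRSF11 and RBM39; background 7.75%) and 2 were higher (PTBP1 and U2AF2; background 8.12%). The median log2 fold change of the 41 genes was -0.12, against 0.02 over all genes, with 28 values below 0 and 13 above, where 47.1% of all genes were below 0. On the deposited TPM all 13 of these positive values turned negative and the medians were -0.52 and -0.35. The standard errors ran from 0.11 to 0.19 on the log2 scale.

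On scaled TPM, vehicle and DOX samples with the same replicate number deviated together, with r of 0.56, 0.26 and 0.19 for replicates 1 to 3. Once the trends along base composition and exonic length were taken out, these values fell to 0.14, -0.0045 and 0.15. No values for samples of different numbers are given beside them, and whether the numbers mark paired cultures was not tested. A voom fit of the recovered reads that used the replicate number as a block made more calls over the whole table. It called 2.34% of all genes lower and 1.36% higher, and of the splicing regulators 0 lower and 0 higher, since none of them reached the minimum fold. PNISR fell just short of the 1.5-fold minimum, at a log2 fold change of -0.583. Without the minimum fold (a choice made after the data were seen), 5 of 41 passed the adjusted p-value in the lower direction (PNISR, PTBP3, SRSF11, PTBP2 and RBM39; background 8.61%) and 2 in the higher direction (PTBP1 and U2AF2; background 5.33%). Read against the background, neither count sets the splicing regulators apart from other genes. Voom without the block gave the named genes adjusted p-values from 0.210 (PNISR) to 0.280 (PTBP2). On the deposited TPM, 1 of 41 was called lower (PNISR; background 2.98%), and 16 were with the replicate block (background 19.0%).

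**Figure D2:**
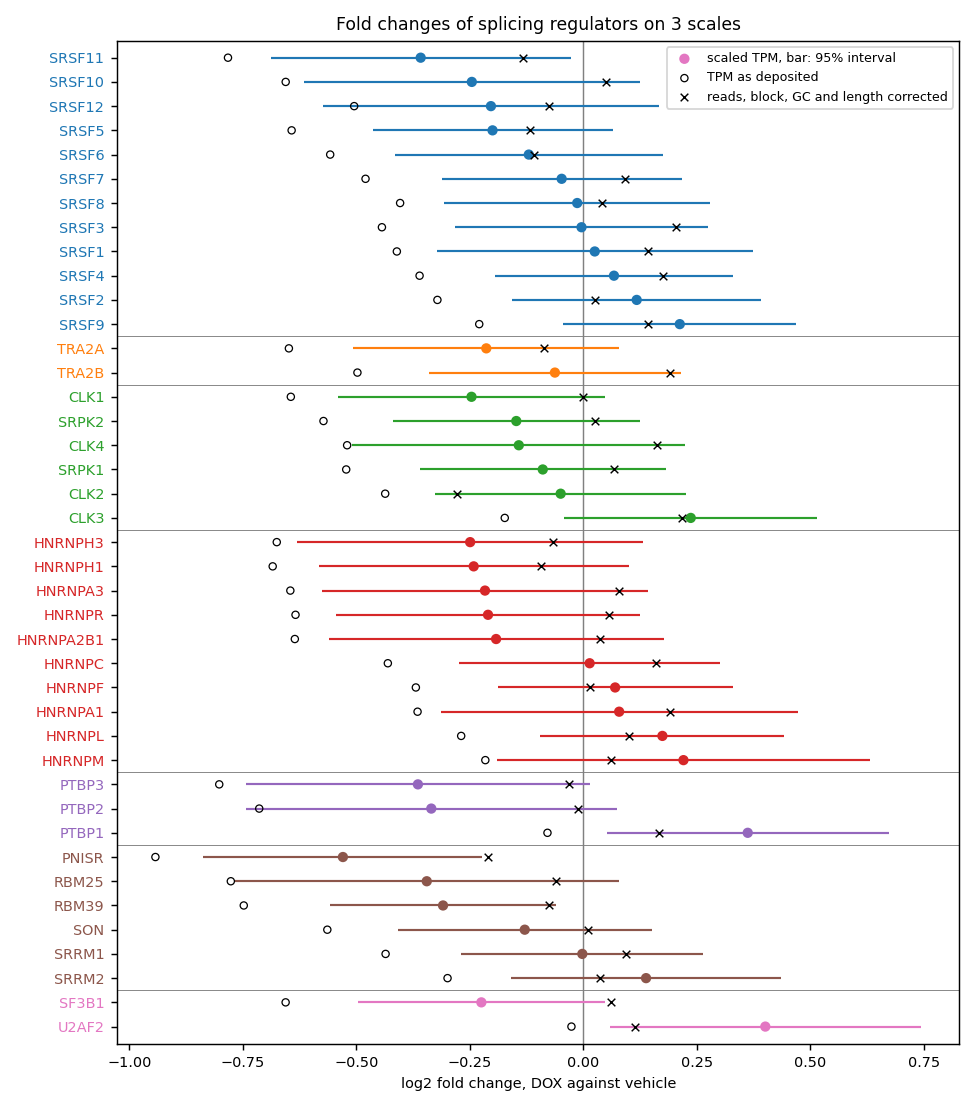
Log2 fold change of DOX against vehicle for the 41 tested genes by role. Filled circles with bars are scaled TPM with the 95% interval of limma, open circles the TPM as deposited and crosses the recovered reads with replicate block after correction for GC content and length. Open circles lie below 0 for every gene, including the 13 genes whose filled circles lie above 0, and the crosses span only -0.28 to 0.22.

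Among the SR proteins, SRSF11 and SRSF9 marked the ends of the range. SRSF11, an SR protein known to bind U2AF, was measured at 22.8, 25.5 and 24.7 scaled TPM in vehicle (the values of a group are in the order of replicates 1 to 3) and at 15.6, 22.9 and 18.5 in DOX. DOX replicate 2 overlapped with the vehicle samples, and DOX replicate 1 was the lowest. The log2 fold change was -0.36 ± 0.15 (SE), with an unadjusted p of 0.0365 and an adjusted p of 0.294 by limma. With voom and the replicate block it was -0.38 at an adjusted p of 0.033, and without the block -0.39 at an adjusted p of 0.247.

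SRSF9 stood at 82.3, 78.3 and 76.8 scaled TPM in vehicle and 92.1, 86.3 and 97.4 in DOX, without overlap. Its log2 fold change was 0.21 ± 0.12 (SE; adjusted p = 0.369 by limma), and -0.23 on the deposited TPM. SRSF5 lay below vehicle without overlap, at 111, 121 and 103 scaled TPM in vehicle against 94.7, 94.8 and 101.5 in DOX. Over all splicing regulators, 4 of 41 had every DOX sample below every vehicle sample (SRSF5, RBM39, PNISR and SF3B1; background 9.15%) and 4 had every DOX sample above (SRSF9, CLK3, HNRNPL and PTBP1, whose fold changes were all negative on the deposited TPM; background 10.9%). The other 9 SR protein genes had log2 fold changes from -0.25 (SRSF10) to 0.12 (SRSF2), and SRSF1 and SRSF3, widely studied regulators of exon inclusion, were at 0.03 and -0.00398. The sum of the 12 SR protein genes was 507.5 ± 23.0 scaled TPM in vehicle and 498.9 ± 31.4 in DOX (SD, n = 3 each).

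TRA2A and TRA2B, homologs of the Drosophila sex determination factor Transformer 2, were of nearly equal abundance. TRA2A was measured at 37.5, 46.1 and 41.7 scaled TPM in vehicle and 31.8, 38.5 and 37.2 in DOX, and TRA2B at 37.6, 42.6 and 39.2 against 33.8, 40.9 and 39.8. Both pairs of groups overlapped, and the log2 fold changes were -0.21 ± 0.13 and -0.06 ± 0.12 (SE), with adjusted p-values of 0.413 and 0.808 by limma.

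Of the SR protein kinases, CLK1 and CLK3 lay at opposite ends. CLK1 was measured at 8.96, 10.5 and 9.80 scaled TPM in vehicle and 7.0, 8.98 and 8.24 in DOX, where DOX replicate 2 just overlapped with vehicle replicate 1. CLK3 was at 9.94, 9.91 and 9.50 in vehicle and 13.4, 10.9 and 10.9 in DOX, without overlap. The log2 fold changes were -0.25 ± 0.13 and 0.24 ± 0.13 (SE), with adjusted p-values of 0.366 and 0.359 by limma, and CLK3 was at -0.17 on the deposited TPM. SRPK1, SRPK2, CLK2 and CLK4 lay between -0.15 and -0.05. Of the 6 kinases, CLK4 spread the widest among DOX samples relative to its level, from 4.59 to 7.75 scaled TPM, against 6.5 to 6.86 in vehicle.

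The 10 hnRNP genes split evenly, 5 below 0 and 5 above. HNRNPH3, a G-run binder, was measured at 27.4, 28.4 and 23.9 scaled TPM in vehicle and 17.1, 27.9 and 22.6 in DOX, with a log2 fold change of -0.25 ± 0.17 (SE; adjusted p = 0.458 by limma). HNRNPM was at 51.3, 51.2 and 31.4 in vehicle and 48.8, 54.7 and 49.4 in DOX, with 0.22 ± 0.18 (SE; adjusted p = 0.538 by limma). The value of HNRNPM rested on vehicle replicate 3, without which the log2 fold change was -0.01, and it was -0.22 on the deposited TPM. The same shallow library held the lowest value of HNRNPA1, 131 scaled TPM beside 155 to 206 in the other samples, and without it HNRNPA1 moved from 0.08 to -0.10. HNRNPH1, HNRNPA3, HNRNPR and HNRNPA2B1 lay between -0.24 and -0.19, and HNRNPC, HNRNPF and HNRNPL, which binds CA repeats, between 0.01 and 0.17. The sum of the 10 genes was 925 ± 64.2 scaled TPM in vehicle and 911 ± 104 in DOX (SD, n = 3 each).

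The PTB family spanned the widest range of log2 fold changes of the role groups on scaled TPM, from -0.36 to 0.36 (from -0.80 to -0.08 on the deposited TPM). It was not the widest after the recovered reads were corrected for GC content and length. The PTB genes then ran from -0.03 to 0.17 and the SR protein kinases from -0.28 to 0.22. PTBP1, a repressor of exons with pyrimidine tracts that in many cells also keeps PTBP2 low, was measured at 71.3, 59.1 and 64.6 scaled TPM in vehicle and 95.7, 84.1 and 72.5 in DOX, without overlap. Its log2 fold change was 0.36 ± 0.14 (SE), with an unadjusted p of 0.0266 and an adjusted p of 0.283 by limma. By voom the adjusted p was 0.0349 with the replicate block and 0.252 without it. PTBP3, a paralog with roles in differentiation, was at 53.7, 64.2 and 65.9 scaled TPM in vehicle and 37.6, 59.1 and 47.2 in DOX. Its log2 fold change was -0.36 ± 0.17 (SE), with an adjusted p of 0.320 by limma. By voom the adjusted p of PTBP3 was 0.0332 with the replicate block and 0.267 without it. PTBP2, known from neurons, was low at 7.06, 9.00 and 7.28 scaled TPM in vehicle and 4.26, 7.43 and 6.5 in DOX. DOX replicate 2 overlapped with vehicle for both PTBP3 and PTBP2. The sum of the 3 genes was 134.0 ± 3.20 scaled TPM in vehicle and 138.1 ± 12.3 in DOX (SD, n = 3 each), and on the deposited TPM PTBP1 was at -0.08.

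Ratios between genes of a sample do not depend on the scaling of TPM. The ratio of PTBP1 to PTBP3 was 1.33, 0.921 and 0.980 in vehicle and 2.54, 1.42 and 1.54 in DOX. The ratio of CLK3 to CLK1 was 1.11, 0.948 and 0.970 in vehicle and 1.91, 1.22 and 1.33 in DOX, and that of SRSF9 to SRSF11 was 3.61, 3.07 and 3.11 in vehicle and 5.90, 3.77 and 5.28 in DOX. TRA2B to TRA2A moved over a narrow range, from 0.925 to 1.00 in vehicle and from 1.06 to 1.07 in DOX. In 7 of the 9 ratios drawn the groups did not overlap, while CLK4 to CLK1 and SRSF2 to SRSF8 did. The GC content of the transcripts was 59.1% for PTBP1 and 37.7% for PTBP3, 54.1% for CLK3 and 38.2% for CLK1, and 48.8% for SRSF9 and 41.1% for SRSF11. It was alike for CLK4 (37.8%) and CLK1, whose ratio overlapped, and for TRA2B (41.5%) and TRA2A (41.6%), whose ratio did not. The part of GC content in these ratios was not tested. The pairs were chosen after the values were seen, and several set a member with a positive log2 fold change over one with a negative. No share over other gene pairs is given beside the 7 of 9, so the count is a description only.

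**Figure D3:**
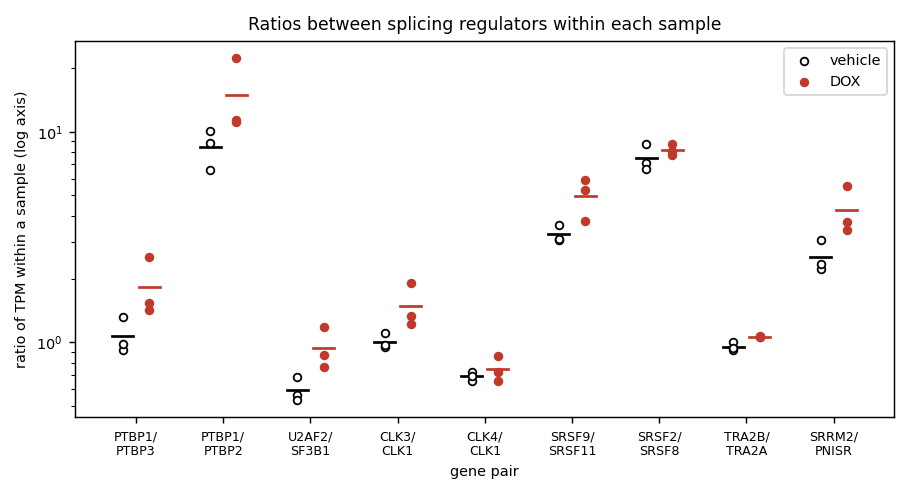
Ratios of TPM between 2 splicing regulators within each sample (log axis) for 9 pairs. Open circles are the vehicle samples, filled red circles the DOX samples and lines the group means. PTBP1 to PTBP3 runs from 0.921 to 1.33 in vehicle and from 1.42 to 2.54 in DOX, while the groups of CLK4 to CLK1 overlap.

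The nuclear speckle proteins held the member with the largest difference. PNISR, an SR-related speckle protein on chromosome 6, was measured at 15.6, 17.9 and 17.0 scaled TPM in vehicle and 9.50, 12.6 and 12.3 in DOX. No DOX sample reached the lowest vehicle sample. The log2 fold change was -0.53 ± 0.14 (SE), with an unadjusted p of 0.00329 and an adjusted p of 0.280 by limma. By voom it was -0.58, at an adjusted p of 0.0107 with the replicate block and 0.210 without it. Over the alternatives the adjusted p of PNISR by limma ran from 0.000126 to 0.726, and leaving out 1 sample gave log2 fold changes from -0.59 to -0.42. The exons of PNISR overlap with PNISR-AS1 on the opposite strand, and the strand setting of the counting is not given in the sources used here.

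RBM39, a U2AF-related coactivator and splicing factor, had the smallest SE of the 41 genes and was measured at 64.1, 65.5 and 63.3 scaled TPM in vehicle and 48.9, 52.4 and 53.9 in DOX. The groups did not overlap, and the log2 fold change was -0.31 ± 0.11 (SE), with an unadjusted p of 0.0202 and an adjusted p of 0.282 by limma. RBM25, a U1-associated factor, had a similar log2 fold change of -0.34 with a wider SE of 0.19, and DOX replicate 2 (40.1 scaled TPM) lay within the vehicle range of 35.0 to 42.2. Both groups overlapped for the speckle scaffolds. SRRM2 was at 47.9, 40.1 and 40.2 scaled TPM in vehicle and 52.5, 47.0 and 42.04 in DOX. Its log2 fold change was 0.14 ± 0.13 (SE; adjusted p = 0.595 by limma) on scaled TPM and -0.30 on the deposited TPM. SON and SRRM1 had log2 fold changes of -0.13 and -0.00221. The sum of the 6 speckle genes was 233, 239 and 234 scaled TPM in vehicle and 197, 226 and 209 in DOX, without overlap. No share over other sets of genes is given beside this. The median log2 fold change of the 6 genes was -0.23 by voom with the replicate block and -0.02 after correction for GC content and length. In bulk samples such as these, fewer cells with a transcript and less RNA per cell cannot be told apart.

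At the 3′ splice site, U2AF2, the large subunit of U2AF that binds the pyrimidine tract, was measured at 21.8, 18.2 and 16.9 scaled TPM in vehicle and 28.9, 26.5 and 20.9 in DOX. DOX replicate 3 overlapped with vehicle replicate 1. The log2 fold change was 0.40 ± 0.15 (SE), with an unadjusted p of 0.0264 and an adjusted p of 0.283 by limma. By voom the adjusted p was 0.0229 with the replicate block and 0.255 without it. On the deposited TPM the log2 fold change was -0.03. SF3B1, the branch point factor of the U2 snRNP, was at 31.7, 32.5 and 31.7 scaled TPM in vehicle and 24.5, 30.3 and 27.2 in DOX, without overlap, with a log2 fold change of -0.22 ± 0.12 (SE; adjusted p = 0.369 by limma). U2AF1, the small subunit, was listed at 0 in all 6 samples and was not tested. Its near-identical copy U2AF1L5 was also listed at 0, and the relative U2AF1L4 was at 3.92 to 5.39 scaled TPM, so the listing of U2AF1 says nothing of its transcription.

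The differences followed the base composition of the transcripts. Over the 41 genes, the log2 fold change correlated with the GC content of the transcripts with Pearson's r of 0.86 (Spearman's rho of 0.84), and over all 11153 genes with a known GC content r was 0.66. Genes of a sample share its library and depth and are not independent replicates, so these values are descriptions. The 11 splicing regulators under 40% GC (among them PNISR, PTBP2, PTBP3, CLK1 and SF3B1) had a median log2 fold change of -0.25, beside -0.25 for all genes in that band. The 16 members from 40% to 45% had a median of -0.12, again as all genes did (-0.12). From 45% to 50%, 7 members had a median of 0.07 beside -0.00267 for all genes, and from 50% to 55%, 4 members had 0.20 beside 0.12. The 3 members at or above 55% (SRRM2, PTBP1 and U2AF2) had a median of 0.36 beside 0.23. Against the GC content of the promoter window, r was 0.26 over 37 members and 0.13 over 8830 genes. The part of either GC content in the differences was not tested.

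**Figure D4:**
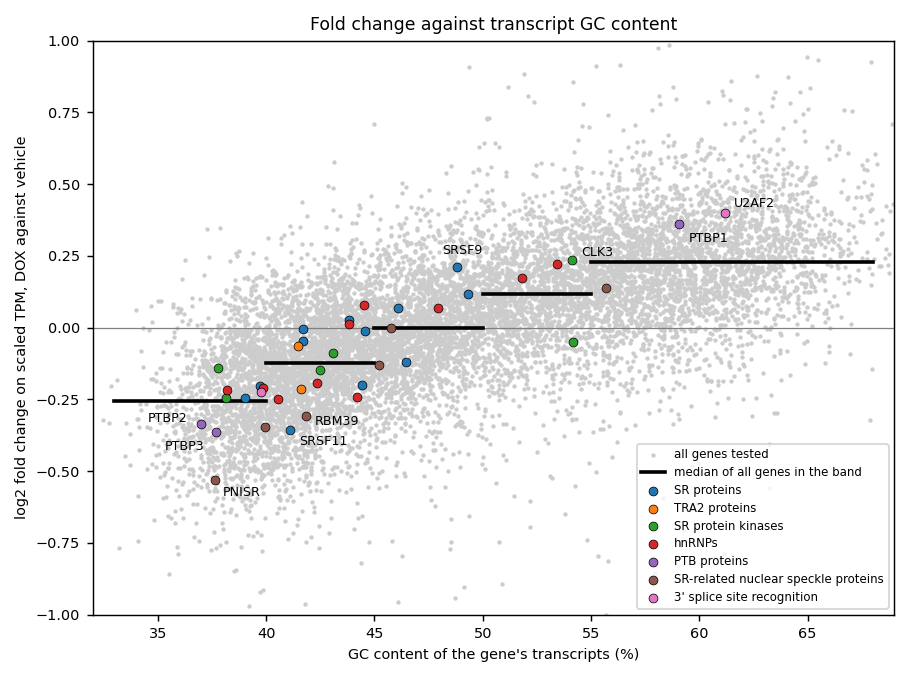
Log2 fold change on scaled TPM against GC content of the transcripts. Coloured points are the 41 tested splicing regulators by role, grey points all genes, and black lines the medians of all genes in bands of GC content (41 genes outside the axes are not drawn). The splicing regulators climb along the grey cloud, from PNISR at 37.7% GC to U2AF2 at 61.2% GC; on the deposited TPM the 13 coloured points above 0 lie below it.

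Samples of a single group also differed along GC content. Deviations of vehicle replicate 1 from the mean of the other vehicle samples correlated with GC content with r of 0.74 over the 41 members, those of vehicle replicate 2 with r of -0.53 and those of vehicle replicate 3 with r of -0.27. Over all 11153 genes these values were 0.65, -0.51 and -0.22. The deviation of DOX replicate 1 from the vehicle mean gave r of 0.91, that of DOX replicate 2 gave 0.60 and that of DOX replicate 3 gave 0.72, beside 0.83, 0.18 and 0.45 over all genes. DOX replicate 1 was the lowest of the 6 samples for 29 of 41 members (background 32.2%) and the highest for 5 (background 30.8%). Its median deviation from the vehicle mean over the members was -0.25 on the log2 scale, against 0.05 for DOX replicate 2 and -0.05 for DOX replicate 3. Without DOX replicate 1 the median log2 fold change of the members was -0.02, and r against GC content was 0.73 over the members and 0.38 over all 11290 genes then tested. DOX replicate 1 was also the deepest library and the one with the most TPM in the 5 small RNAs (82.6%), and the part of these properties in the differences was not tested.

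**Figure D5:**
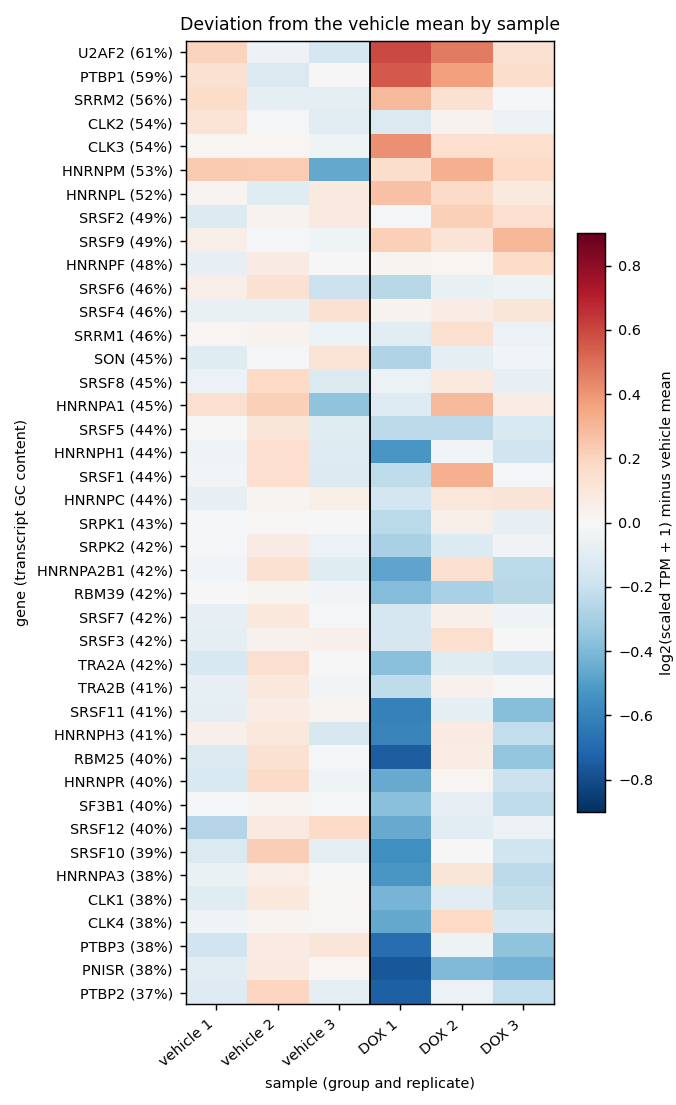
Deviation of log2(scaled TPM + 1) from the vehicle mean for the 41 tested genes (rows, ordered by GC content of the transcripts, in parentheses) in each of the 6 samples (columns; the black line separates vehicle from DOX). Red is above and blue below the vehicle mean. DOX replicate 1 carries the strongest colours, blue for the GC-poor genes at the bottom and red for U2AF2 and PTBP1 at the top, where red turns to values below vehicle on the deposited TPM.

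When the recovered reads were corrected for GC content and exonic length in each sample, with the replicate block, the log2 fold changes of the 41 members ran from -0.28 to 0.22. None passed the adjusted p-value of limma voom (0.270 to 0.995), beside a background of 0.0269% lower and 0% higher. The median became 0.04, beside 0.02 over all genes, with 14 values below 0 and 27 above. Of the 41, 24 lay within 0.1 of 0, where 11 had done so without the correction. The matching shares of all genes are not given here. The correction takes out any trend along GC content or length, whatever its source. Smaller differences are thus built into the method for genes that followed GC content, and the source of the trend was not tested. PNISR moved from -0.58 to -0.21, PTBP3 from -0.38 to -0.03, SRSF11 from -0.38 to -0.13, PTBP1 from 0.36 to 0.17 and U2AF2 from 0.42 to 0.11. At an unadjusted p under 0.05, CLK2 and PNISR were lower (background 7.47%) and SRSF3 and TRA2B higher (background 7.91%) after the correction.

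Other genes of splicing were read in the same fit. Of 46 snRNP and core spliceosome proteins, 46 were tested, 0 were called lower and 0 higher (limma on scaled TPM), and 35 had a log2 fold change above 0 and 11 below (47.1% of all genes were below 0), with a median of 0.16. The lowest were U2SURP, a U2 snRNP-associated protein, at -0.45, and CDC5L, a component of the Prp19 complex, at -0.34. The highest were SF3A2, a subunit of the U2 snRNP, at 0.77, and SNRPD2, a core Sm protein, at 0.61. On the deposited TPM the median of this list was -0.22, and after the GC and length correction it was 0.17, beside 0.17 in the same voom fit without the correction. The median of the splicing regulators was -0.14 without the correction and 0.04 with it. The difference between the lists was not tested. With voom and the replicate block, 3 of these 46 genes passed the adjusted p-value lower (background 8.61%) and 8 higher (background 5.33%), and 1 of the latter reached the minimum fold (background 1.36%).

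Of 61 other splicing regulators, 58 were tested and 0 were called lower or higher by limma on scaled TPM, with 35 values below 0, 23 above and a median of -0.08. CCNL1, cyclin L1, which is found in nuclear speckles, had the lowest value. It was measured at 56.1, 68.5 and 60.1 scaled TPM in vehicle and 32.9, 23.1 and 39.2 in DOX, with a log2 fold change of -0.96 ± 0.18 (SE; adjusted p = 0.262 by limma, 0.0107 by voom with the replicate block). By voom without the block the adjusted p was 0.146. After the GC and length correction CCNL1 was at -0.77 (adjusted p = 0.130 by limma voom). SCAF11, an SR-related factor, was at -0.64, and PUF60 and KHSRP, which bind pyrimidine-rich and AU-rich RNA, were highest at 0.44 and 0.37. HNRNPH2, MBNL3 and SRPK3 were under the expression minimum. With voom and the replicate block, 4 of the 58 genes were called lower with the minimum fold (background 2.34%) and 0 higher (background 1.36%).

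Overlapping and copied genes limit single values. Exons of SRSF2, SRSF9, CLK3, SRPK1, SRPK2, HNRNPA2B1, HNRNPA3, HNRNPH3, RBM25, SRRM2, SON, PNISR and U2AF2 overlap with a gene on the opposite strand, and those of SRSF1, SRSF6, SRSF9 and HNRNPL with a gene on the same strand (GENCODE release 44). Copies of HNRNPA1 were listed beside it, with HNRNPA1L2 at 3.15 to 4.66, HNRNPA1P10 at 3.59 to 6.87 and HNRNPA1P33 at 1.75 to 5.2 scaled TPM, and reads could have been split among them.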

How the data were processed

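RNA-seq was performed on 3 vehicle and 3 DOX samples of DU145/tet-XISTshRNA cells. The authors prepared stranded mRNA libraries, used STAR to align reads to GRCh38, and deposited TPM per gene symbol, which sums to 1000000 in each sample. The counting tool, its strand setting and the software versions are not given in the sources used here. The authors also deposited a DESeq2 table, of which only the mean normalized count over all samples (a signal without replicates) was used. Its fold changes, standard errors, Wald scores and p-values were not used.

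TPM was scaled by the median of ratios, transformed as log2(scaled TPM + 1) and tested with limma (version 3.58.1, R 4.3.3; lmFit and eBayes with trend) for 11595 genes with a mean of at least 1, with Benjamini-Hochberg adjustment over all of them. Calls required both an adjusted p-value under 0.05 and a difference of more than 1.5-fold. Differences are on the log2(value + 1) scale, which understates those of low genes. Reads per gene were recovered from TPM and the mean normalized counts, and 96.5% of 38583 low values (1 to 100 reads) came out within 0.05 of a whole read, against 10% by chance. These estimated reads were fitted with voom. GC content and exonic length came from GENCODE release 44 (90.4% of symbols matched) and were corrected in each sample with splines of 5 degrees of freedom. The limma fit on scaled TPM and the voom fit without the replicate block were tested on simulated data. Those data held no trend along GC content and no replicate structure. The fits with the replicate block and with the GC and length correction were not tested in this way. Summaries and plots were made in Python 3.11.15 (pandas 2.3.3, matplotlib 3.10.9).

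Groups and replicate numbers come from the sample titles. Same-numbered vehicle and DOX samples deviated together across genes (r of 0.56, 0.26 and 0.19 for replicates 1, 2 and 3), and no label says what a number stands for. After the GC and length correction r was 0.14, -0.0045 and 0.15. Genes and lists were chosen with earlier results of these data known. Named genes were the lowest and highest of each role, those with an unadjusted p under 0.05, those called by voom with the replicate block, those under the expression minimum, and the 2 lowest and 2 highest of each other list. SRSF5 and the remaining members were named after their values were seen. A further list of tissue markers is not reported here.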

Additional observations from a re-analysis of the deposited data

How the results depend on the processing

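Directions changed with the scaling, with the GC and length correction and with single samples. Of the 41 log2 fold changes of splicing regulators, 41 kept their direction and stayed short of a call with a pseudocount of 0.1, without the expression minimum, with the replicate block and with voom with and without the block; 36 did so with TPM rescaled without the 5 small RNAs, 27 after the GC and length correction, 27 on the deposited TPM (13 reversed) and 36 to 38 with each sample left out (36 without DOX replicate 1). The smallest library had 5453638 estimated reads, which limits genes of low counts such as SRSF12. The replicate block on scaled TPM changed no call of a splicing regulator, and U2AF1, at 0 in all samples, could be tested under no alternative. The causes of the changes listed here were not tested.

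On the deposited TPM, 1 splicing regulator was called lower, and 348 genes were called lower and 3 higher over the whole table. With the deposited TPM and the replicate block, 16 splicing regulators, 6 core spliceosome genes and 21 of the other splicing regulators were called lower, as were 2217 genes over the whole table with 15 higher. Of the other splicing regulators, 4 were called lower on the deposited TPM and 4 by voom with the replicate block. The median of the splicing regulators was -0.52 on the deposited TPM with or without the block, and 0.0414 after the GC and length correction. Over the whole table, 1 gene was called lower with TPM rescaled without the small RNAs, 1 by voom, 271 by voom with the replicate block (158 higher) and 3 after the GC and length correction. Voom with the replicate block called 1 core spliceosome gene higher. Without a minimum fold, voom with the replicate block gave 5 splicing regulators lower and 2 higher, 998 genes lower and 618 higher, 3 core spliceosome genes lower and 8 higher, and 13 of the other splicing regulators lower and 3 higher. When each sample was left out in turn, 0 splicing regulators were called, 0 to 1 genes were called lower and 0 to 13 higher over the whole table (the 13 and 1 of the lower calls without vehicle replicate 1, the other without DOX replicate 1), and the median of the splicing regulators ran from -0.14 to -0.02, nearest to 0 without DOX replicate 1.

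The log2 fold changes that turned negative on the deposited TPM, with or without the replicate block, were those of SRSF1 (-0.41), SRSF2 (-0.32), SRSF4 (-0.36), SRSF9 (-0.23), CLK3 (-0.17), HNRNPA1 (-0.37), HNRNPC (-0.43), HNRNPF (-0.37), HNRNPL (-0.27), HNRNPM (-0.22), PTBP1 (-0.079), SRRM2 (-0.30) and U2AF2 (-0.0261). With TPM rescaled without the small RNAs, the log2 fold changes that turned negative were SRSF1 at -0.0624, SRSF4 at -0.0183, HNRNPA1 at -0.0102, HNRNPC at -0.0752 and HNRNPF at -0.018. After the GC and length correction of the reads, those that turned positive were SRSF3 at 0.20, SRSF7 at 0.0929, SRSF8 at 0.0414, SRSF10 at 0.0492, TRA2B at 0.19, CLK4 at 0.16, SRPK1 at 0.0676, SRPK2 at 0.0254, HNRNPA2B1 at 0.0358, HNRNPA3 at 0.0792, HNRNPR at 0.0557, SRRM1 at 0.0945, SON at 0.0113 and SF3B1 at 0.0617. Leaving out each sample in turn changed the sign of 11 of the 41, namely SRSF1 (-0.12 to 0.15), SRSF3 (-0.0753 to 0.0666), SRSF7 (-0.0896 to 0.0024), SRSF8 (-0.0754 to 0.0785), TRA2B (-0.11 to 0.0155), CLK2 (-0.0997 to 0.0101), CLK4 (-0.30 to 0.015), HNRNPA1 (-0.0987 to 0.19), HNRNPC (-0.0349 to 0.10), HNRNPM (-0.0076 to 0.34) and SRRM1 (-0.0724 to 0.0436).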
